A study of Mus musculus with 8 samples.

Results

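The genes of oxidative phosphorylation were compared in fetal mouse lung between 2 genotypes and 2 maternal diets. The members were all probes whose platform gene symbol begins with Nduf, Uqcr, Atp5, Cox4, Cox5, Cox6, Cox7 or Cox8, or is Cycs, Cyc1, Sdha, Sdhb, Sdhc or Sdhd, and that were detected on both arrays of any group, at a detection p-value below 0.05 per array. The array carried 110 such probes for 87 genes, and 99 probes for 82 genes were detected, out of 14965 detected probes of 25697 and 10298 genes in all. The other 11 probes were detected on 0 of 8 arrays, which left Cox7b2, Cox8c, Ndufs1, Uqcrfs1 and Uqcrq without a value. Sdha, Ndufa4l2 and Ndufa11 were not analysed here.

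Lungs were taken from E18.5 embryos and total RNA was hybridised to Illumina bead arrays. The mRID PTU group came from SMRTmRID embryos in a c57Bl6/J background whose mothers ate a diet with 0.15% PTU for 2 days, starting at E16.5. The WT PTU group came from wild-type c57Bl6/J embryos of mothers on the same PTU diet. The mRID control group came from SMRTmRID embryos and the WT control group from wild-type c57Bl6/J embryos, both with mothers on control chow. Each group was 1 RNA sample on 2 arrays, A and B, that the labels call technical replicates, and the number of embryos in it is not stated in the labels. All p-values below therefore compare 4 RNA samples, and none covers variation between animals. They cover array error, except in a fit over the means of the 4 RNA samples, given further below. Array mean signals were 294 to 376, between 54.7% and 58.8% of probes were detected, and arrays of a group correlated at 0.996 against 0.988 to 0.994 between groups. Of 10 lung markers, 9 had a detected probe, with summed normalized signals, on the linear scale, of 47305 to 58137 per array.

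Oxidative phosphorylation is the last stage of respiration in mitochondria. Complex I (Nduf genes) and complex II (Sdh genes) pass electrons from NADH and succinate to ubiquinone, complex III (Uqcr genes and Cyc1) passes them to cytochrome c (Cycs), complex IV or cytochrome c oxidase (Cox genes) passes them to oxygen, and complex V (Atp5 genes) uses the resulting proton gradient to make ATP. Several small subunits of complex IV come as pairs of isoforms, of which Cox6a2, Cox7a1 and Cox8b are known from heart and skeletal muscle and Cox6a1, Cox7a2 and Cox8a from most other tissues. Thyroid hormone is known to raise mitochondrial gene expression in liver and muscle. PTU blocks the making of thyroid hormone, SMRT is a corepressor that the thyroid hormone receptor and other nuclear receptors recruit, and the mRID allele is known for altered receptor interaction domains.

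Promoter regions of complex IV isoforms are shown first, since the largest differences lay in this family. No promoter was available for Cox6a2, the member with the largest of these differences. Each sequence runs 5′ to 3′ from 250 bases before to 30 bases after the start of the gene in RefSeq, build GRCm38.p6. Capitals mark matches, on either strand, to the motif letters searched, and overlaps between motifs were allowed. GCGCATG is part of the site of NRF1, and CCGGAAG is a site of ETS factors, GABP among them. GGGCGG is the Sp1 site and TATAAA the TATA box. CAGCTG is an E-box, and AGGTCA is a nuclear receptor half-site. Cox8b (chr7:140900417-140900696, minus strand) and Cox7a1 (chr7:30183921-30184200, plus strand) are muscle isoforms, and Cox8a (chr19:7217587-7217866, minus strand) and Cox6a1 (chr5:115348929-115349208, minus strand) are the widely used partners of Cox8b and Cox6a2.
Cox8b: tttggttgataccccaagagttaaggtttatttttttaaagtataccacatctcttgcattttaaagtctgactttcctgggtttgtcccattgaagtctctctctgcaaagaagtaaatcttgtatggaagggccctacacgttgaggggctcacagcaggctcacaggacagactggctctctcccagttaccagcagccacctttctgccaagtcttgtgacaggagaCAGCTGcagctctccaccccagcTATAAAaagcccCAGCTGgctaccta
Cox7a1: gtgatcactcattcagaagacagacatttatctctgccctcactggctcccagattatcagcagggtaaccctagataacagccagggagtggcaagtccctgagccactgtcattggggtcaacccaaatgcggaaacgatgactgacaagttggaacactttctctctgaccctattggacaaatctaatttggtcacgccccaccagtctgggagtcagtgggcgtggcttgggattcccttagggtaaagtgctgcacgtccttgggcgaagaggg
Cox8a: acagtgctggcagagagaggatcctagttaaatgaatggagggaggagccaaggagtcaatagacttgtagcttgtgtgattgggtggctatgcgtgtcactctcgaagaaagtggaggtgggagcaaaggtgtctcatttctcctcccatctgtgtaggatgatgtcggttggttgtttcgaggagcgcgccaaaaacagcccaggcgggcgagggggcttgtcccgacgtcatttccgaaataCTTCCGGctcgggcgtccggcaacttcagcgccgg
Cox6a1: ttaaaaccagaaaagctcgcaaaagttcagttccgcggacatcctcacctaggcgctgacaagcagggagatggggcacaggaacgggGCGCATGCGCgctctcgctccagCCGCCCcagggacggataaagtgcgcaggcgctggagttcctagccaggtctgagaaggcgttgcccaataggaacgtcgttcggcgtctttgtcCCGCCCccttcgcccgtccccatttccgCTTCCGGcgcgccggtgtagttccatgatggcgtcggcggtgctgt
Cox8b had 2 kinds of match, E-box and TATA, and Cox7a1 had 0. Cox8a had an ETS match, and Cox6a1 had NRF1, ETS and Sp1 matches. Of the 82 member genes, 69 had a promoter in the table. NRF1 letters were found in 14 of them (20.3%) against 4.21% of all 27025 genes, ETS letters in 17 (24.6%) against 9.48%, and Sp1 letters in 30 (43.5%) against 37.3%. TATA letters were in 6 members (8.7%) against 15.1% of all genes, E-box letters in 5 (7.25%) against 16.8%, and half-site letters in 13 (18.8%) against 17.2%. Cox8b and Cox7a1 had 0 matches to the NRF1 and ETS letters. The same held for Cox7a2, the widely used partner of Cox7a1, which had Sp1 letters, and for many other members. These counts describe letters in a window and not bound sites.

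Most oxidative phosphorylation genes differed little between the 4 groups. Values are normalized log2 signals, a difference is a log2 difference, and passing means an adjusted p below 0.05 (limma, Benjamini-Hochberg) together with at least 1.5-fold. The range over the 4 group means had a median of 0.18 over the 82 member genes and 0.25 over all 10298 genes. It reached 1.5-fold for 4 members (4.88%, against 8.4% of all genes), which were Cox6a2, Cox8b, Cox7a1 and Ndufa10. The members were also brighter, with a median level of 10.3 against 7.45 for all genes.

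In the mRID control against the WT control sample, 0 members rose and 2 fell, Cox6a2 and Cox8b, while 0.437% of all genes rose and 1.12% fell. At an unadjusted p under 0.05 there were 4 higher and 4 lower members, and 19.1% of all genes in either direction. In the mRID PTU against the WT PTU sample, 0 members rose and 0 fell, while 3.51% and 0.66% of all genes did, and 3 higher and 12 lower members had an unadjusted p under 0.05, as did 26% of all genes in either direction. With PTU in wild type, 0 members rose and 2 fell, again Cox6a2 and Cox8b, with 1.1% and 2.45% of all genes rising and falling. At an unadjusted p under 0.05 there were 8 higher and 5 lower members, and 25.6% of all genes. With PTU in mRID, 0 rose and 1 fell, Cox6a2, with 2.51% and 0.816% of all genes. At an unadjusted p under 0.05 there were 2 higher and 14 lower members, and 24.4% of all genes. The genotype by diet term subtracts the wild-type PTU difference from that of mRID. It passed above 0 for Cox6a2 and below 0 for Ndufc1 and Atp5o, against 6.13% and 3.23% of all genes.

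**Figure D1:**
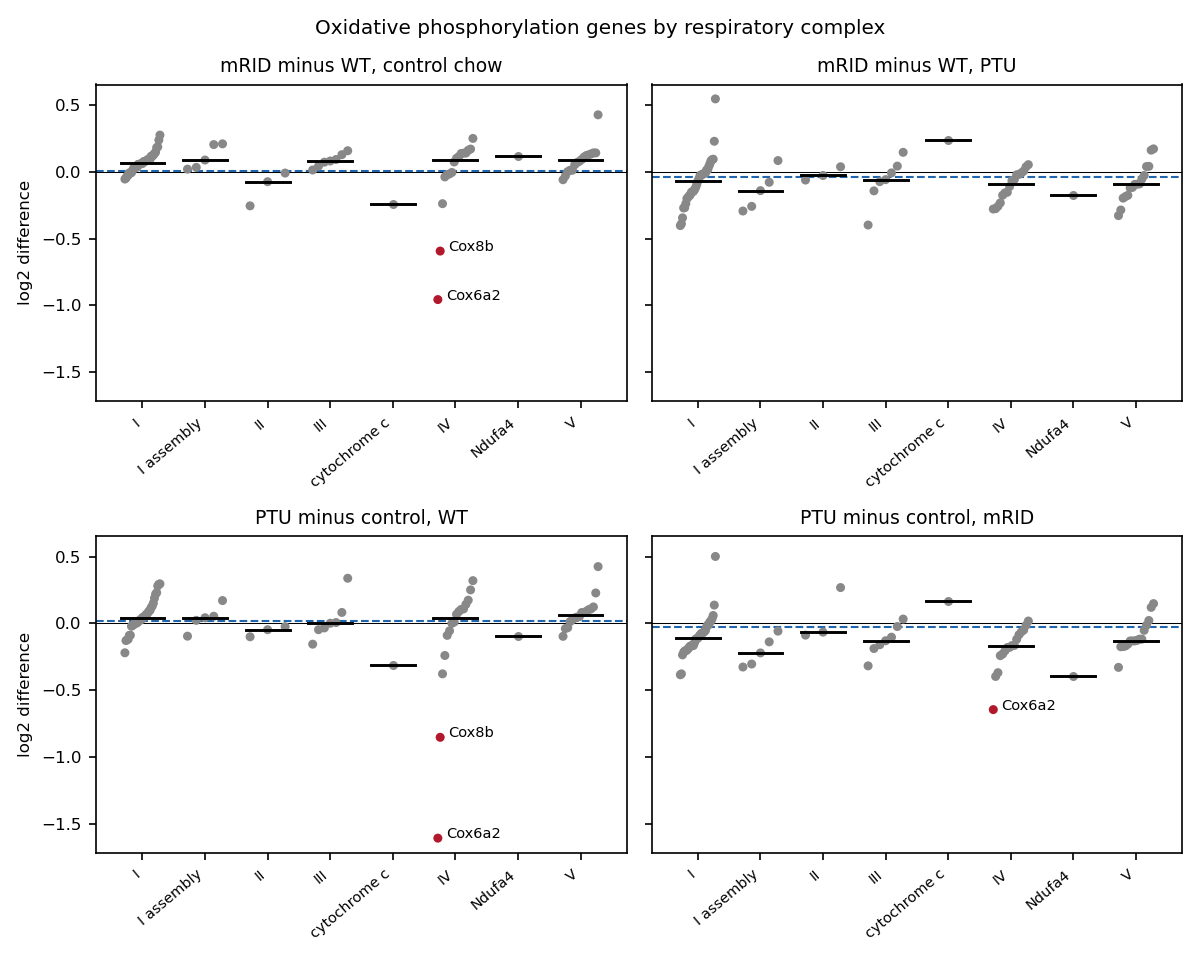
Log2 difference (y axis) of each member gene in 4 comparisons, by respiratory complex (x axis), with black bars at class medians, a dashed line at the median of all 10298 genes, and genes that passed the test in red. Cox6a2 and Cox8b lie apart from the other members, at -1.61 and -0.85 for PTU in wild type.

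The muscle isoforms of cytochrome c oxidase Cox6a2 and Cox8b were lower in the other 3 groups than in WT control, and Cox6a2 had the largest difference of all members in 3 of the 4 comparisons, genotype on PTU being the exception. Cox6a2 is on chromosome 7 and encodes the heart and skeletal muscle form of subunit VIa. Its unnormalized signals were 104.7 and 120.6 in mRID PTU, 98.4 and 107.4 in WT PTU, 141.5 and 143.6 in mRID control, and 341.8 and 278 in WT control. Both WT control arrays lay above all other arrays, both mRID control arrays came next, and the 2 PTU groups overlapped. As normalized levels these were 6.37 and 6.50 in mRID PTU, 6.41 and 6.44 in WT PTU, 7.08 on both mRID control arrays, and 8.03 and 8.04 in WT control. Cox6a2 fell by 0.96 in mRID against WT on control chow, a fold of 1.94 (SE 0.09, adjusted p 0.000239). It fell by 1.61 with PTU in wild type (SE 0.09, adjusted p 2.16e-06), a fold of 3.05. With PTU in mRID it fell by 0.65 (SE 0.09, adjusted p 0.00106), a fold of 1.57. This difference went under the fold threshold with several kinds of processing. It was -0.57 with median scaling, -0.54 without background correction, and -0.49 with an offset of 50 and in the authors' processed values. Without mRID PTU array A it was -0.58, also under the threshold. On PTU the genotypes differed by 0.01 (SE 0.09, adjusted p 0.974), and the genotype by diet term was 0.96 (SE 0.12, adjusted p 0.00075).

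Cox8b, also on chromosome 7, encodes the muscle form of subunit VIII. Its levels were 5.13 and 5.002 in mRID PTU, 5.37 and 4.98 in WT PTU, 5.45 and 5.42 in mRID control, and 5.98 and 6.08 in WT control. The WT control arrays were again the highest, and the PTU arrays of the 2 genotypes overlapped. Cox8b fell by 0.85 with PTU in wild type (SE 0.12, adjusted p 0.00169) and by 0.59 in mRID against WT on control chow (SE 0.12, adjusted p 0.0295). The second call was lost without mRID control array A (adjusted p 0.098) or B (0.13) or WT control array A (0.118) or B (0.152), all from limma. In the alternatives the genotype call held in 7 of 16 and the call for PTU in wild type in 13 of 16. With an offset of 50 the genotype and PTU differences were -0.36 and -0.50, under the fold threshold. The authors' processed values gave -0.35 and -0.48. The Cox8b probe was dim outside WT control, with unnormalized signals of 52.1 to 61.5, against 97.9 and 87.3 in WT control. PTU in mRID gave -0.37 (adjusted p 0.0892), the genotypes differed by -0.11 on PTU (adjusted p 0.627), and the genotype by diet term was 0.48 (adjusted p 0.0919). Without WT PTU array A that term was 0.68 with an adjusted p of 0.0208.

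Cox7a1, the heart and skeletal muscle form of subunit VIIa, had levels of 6.34 and 6.25 in mRID PTU, 6.45 and 6.65 in WT PTU, 6.75 and 6.64 in mRID control, and 6.77 and 7.09 in WT control. Both arrays of each PTU group lay below both arrays of the control group of its genotype. Its differences were -0.24 and -0.26 for genotype on control chow and on PTU, and -0.38 and -0.40 for PTU in wild type and in mRID. None passed limma's test, with adjusted p-values of 0.323, 0.211, 0.0808 and 0.0673 in that order.

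The widely used isoforms had smaller differences. Cox8a lay between 12.08 and 12.22 on all 8 arrays, with differences of -0.07 to 0.00 and adjusted p-values of 0.69 or more in limma. Cox7a2 lay between 8.97 and 9.17, and its differences ran from -0.06 to 0.12. Cox6a1 was 11.10 on both mRID PTU arrays, 11.12 and 11.13 in WT PTU, 11.35 and 11.33 in mRID control, and 11.29 and 11.43 in WT control. All 4 PTU arrays of Cox6a1 lay below all 4 control arrays, and the PTU difference was -0.24 in each genotype (adjusted p 0.112 in mRID and 0.114 in wild type).

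**Figure D2:**
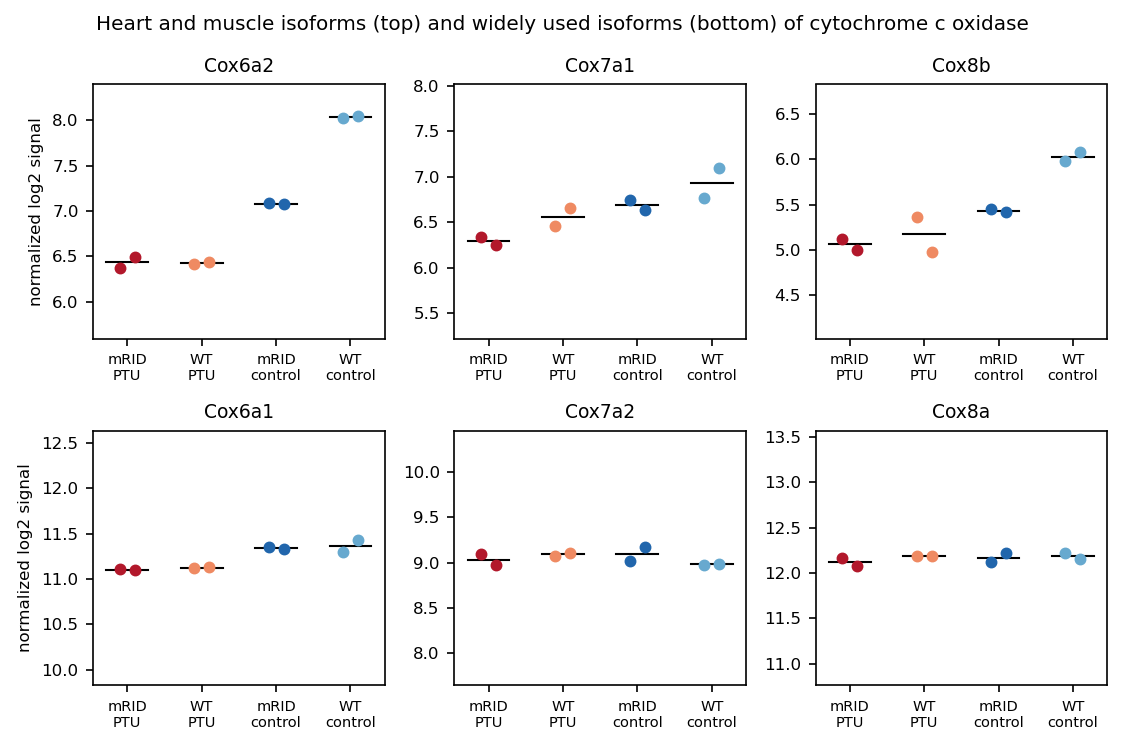
Normalized log2 signal (y axis, spanning the same log2 height in every panel) of 3 muscle isoforms (top) and their widely used partners (bottom) on the 2 arrays of each group, with bars at group means. Cox6a2 is at 8.03 and 8.04 in WT control and at 6.37 to 6.50 on the 4 PTU arrays, while Cox8a stays between 12.08 and 12.22.

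Most heart muscle markers moved with these isoforms. Of 12 listed heart genes 9 were detected, and their summed normalized signals, on the linear scale, were 1411 and 1464 in mRID PTU, 1300 and 1236 in WT PTU, 2351 and 2343 in mRID control, and 4482 and 4261 in WT control. This order of groups is that of Cox6a2, with WT control highest and the PTU groups lowest. On control chow 5 of the 9 fell in mRID against WT, at a median difference of -0.80. With PTU in wild type 6 fell (median -1.12) and with PTU in mRID 5 fell (median -0.71). On PTU 1 of 9 fell in mRID against WT, Myl3, and the median was 0.084. Myl7, the light chain of atrial myosin, differed by -0.80, -2.01 and -0.99 in the first 3 of these, and Myh6, a cardiac myosin heavy chain, by -0.84, -1.74 and -0.78. By sign alone, 8 of the 9 were below 0 for genotype on control chow, 9 for PTU in wild type and 8 for PTU in mRID. Tnni3 went the other way with PTU in mRID, at 0.11 to 0.32 over the alternatives. Myl2 did so on control chow, at 4.96 in mRID control and 4.74 in WT control. Myl3 differed by -0.33 to -0.10 for genotype on control chow over the alternatives. Mybpc3 and Myl2 were not well above background on all 4 PTU arrays. Skeletal muscle markers (8 of 11 detected) summed to 601 and 577 in mRID PTU, 406 and 406 in WT PTU, 478 and 469 in mRID control, and 503 and 535 in WT control, with mRID PTU highest. The brown fat markers had 0 of 4 detected. Squamous epithelium markers (4 of 6 detected) also had their highest sums in WT control, with 105 and 101 in mRID PTU, 82 and 88 in WT PTU, 145 and 146 in mRID control, and 623 and 636 in WT control. The part of RNA from heart muscle or another tissue in the Cox6a2 and Cox8b differences was not tested, and fewer cells of a type and less RNA per cell cannot be told apart in these samples.

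**Figure D3:**
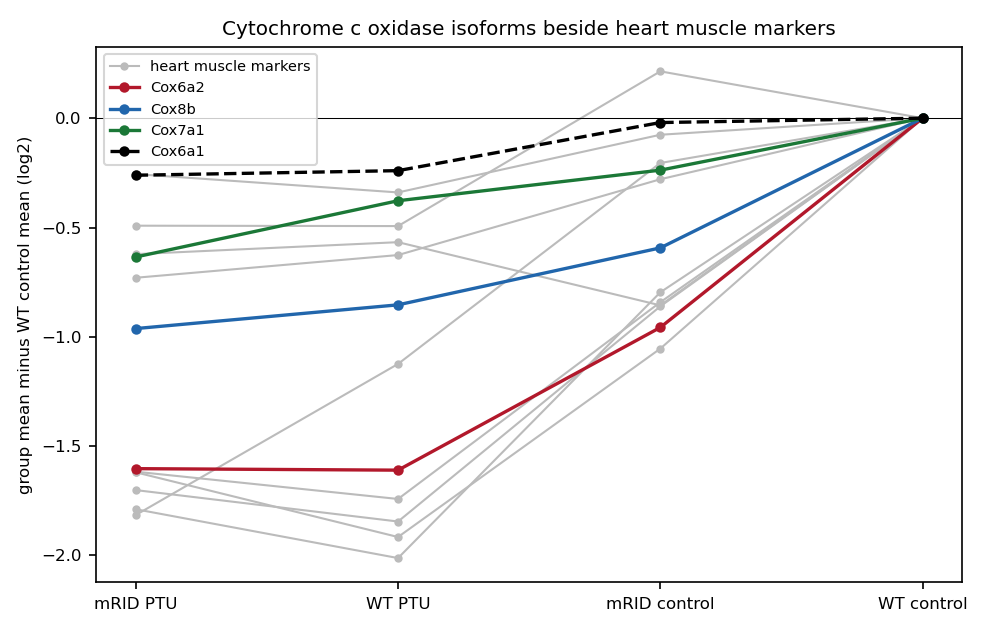
Group mean minus WT control mean (y axis, log2) in the 4 groups (x axis) for Cox6a2, Cox8b, Cox7a1, Cox6a1 and the 9 detected heart muscle markers (grey). Cox6a2 lies at -0.96 in mRID control and -1.61 in WT PTU, among the grey lines, and Cox6a1 at -0.24 in WT PTU.

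The rest of complex IV differed by less. Cox7c, a small subunit, had levels of 11.17 and 11.07 in mRID PTU, 11.36 and 11.43 in WT PTU, 11.32 and 11.34 in mRID control, and 10.998 and 11.16 in WT control, so that WT PTU and mRID control were the higher groups. Its genotype by diet term was -0.53 (SE 0.13, adjusted p 0.0244), under the fold threshold, and PTU gave -0.21 in mRID and 0.32 in wild type. Cox7c was picked out after its values were seen. The regulatory subunits Cox4i1 and Cox5a differed by -0.23 and -0.18 for PTU in mRID and by 0.09 and 0.07 for PTU in wild type, with adjusted p-values of 0.15 or more. Cox4i2, an isoform of lung and known to respond to low oxygen, differed by -0.23 for genotype on PTU (adjusted p 0.183). Cox6b1 and its testis isoform Cox6b2 differed by -0.15 to 0.17 over the 4 comparisons. Cox7a2l, which takes part in supercomplexes of complexes III and IV, had the largest genotype difference of complex IV on PTU, -0.28 (adjusted p 0.105).

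The complex I class held 33 genes, with the pseudogene Ndufs5-ps counted among them. Ndufc1 was the 1 that passed in any comparison, and it did so in the genotype by diet term. Ndufc1, an accessory subunit of the membrane arm, had levels of 9.83 and 9.75 in mRID PTU, 10.15 and 10.23 in WT PTU, 10.18 and 10.17 in mRID control, and 9.79 and 10.00 in WT control. WT PTU and mRID control lay above the other 2 groups, which overlapped. Its genotype by diet term was -0.68 (SE 0.14, adjusted p 0.00908), and -0.57 and under the fold threshold without WT control array A. The second Ndufc1 probe, nearly as bright, gave -0.45 for this term and did not pass in limma (adjusted p 0.0967). In the single comparisons Ndufc1 differed by -0.40 for genotype on PTU (adjusted p 0.0242) and -0.38 for PTU in mRID (0.0329), both under the fold threshold. Its second probe gave -0.24 and -0.31 there (adjusted p 0.225 and 0.128).

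Ndufa10, another accessory subunit, had the largest difference of all members for genotype on PTU, and was highest in mRID PTU. Its levels were 10.87 and 10.64 in mRID PTU, against 10.21 and 10.20 in WT PTU, 10.26 and 10.25 in mRID control, and 10.15 and 10.16 in WT control. Both mRID PTU arrays lay above all other arrays. The difference was 0.55 for genotype on PTU (SE 0.10, adjusted p 0.0042) and 0.50 for PTU in mRID (SE 0.10, adjusted p 0.00866), folds of 1.46 and 1.42 that missed the threshold of 1.5. Without mRID PTU array B they were 0.66 and 0.62 and passed.

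The catalytic subunits of complex I stayed close. Ndufv1, which binds NADH, lay between 10.70 and 10.86 on all arrays, and Ndufs7, which carries an iron-sulfur cluster, between 11.04 and 11.18. Ndufv2, the partner of Ndufv1, differed by -0.22 for PTU in mRID (adjusted p 0.188). Ndufc2, the partner of Ndufc1 in the membrane arm, had the largest difference of complex I for PTU in wild type, 0.30 (adjusted p 0.095). Ndufa12 and Ndufb2, accessory subunits picked out after their values were seen, had genotype by diet terms of -0.51 and -0.47 (adjusted p 0.0213 and 0.0429). Ndufb11 was near the detection limit. In WT PTU against WT control, where it was not well above background, its fold was 1.13 against the dimmest detected signal. The fitted difference of 0.23 was not told apart from 0 in limma (SE 0.14, adjusted p 0.353). The probe of Ndufs5-ps belongs to a pseudogene of Ndufs5, so its values are uncertain.

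Of the 5 Ndufaf genes, which help to assemble complex I, 0 passed. Ndufaf1, picked out after its values were seen, differed by -0.30 for PTU in mRID (adjusted p 0.05). Ndufaf3 had the largest differences of this class on PTU, -0.29 for genotype and -0.33 for PTU in mRID. It had 5.95 and 5.39 on the mRID control arrays, a gap wider than its difference in each of the 4 comparisons, and without mRID control array B the second was -0.61 with an adjusted p of 0.0289. Ndufaf7 differed by 0.21 for genotype on control chow. Ndufa4, named for complex I and now placed with complex IV, had levels of 10.59 and 10.48 in mRID PTU, 10.72 and 10.70 in WT PTU, 10.90 and 10.96 in mRID control, and 10.91 and 10.70 in WT control. The mRID PTU arrays were the lowest, and PTU in mRID gave -0.39 (SE 0.10, adjusted p 0.0305), a fold of 1.31.

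Complexes II and III and cytochrome c had 0 members past the test. In complex II, Sdhb, the iron-sulfur subunit, differed by -0.10 to -0.06 over the 4 comparisons. Sdhd, a membrane anchor, differed by -0.25 for genotype on control chow and by 0.27 for PTU in mRID (adjusted p 0.222 and 0.137). In complex III, Uqcrh, the hinge protein between cytochrome c1 and cytochrome c, had levels of 10.71 and 10.72 in mRID PTU, 11.11 on both WT PTU arrays, 10.89 and 10.74 in mRID control, and 10.76 and 10.78 in WT control. The WT PTU arrays lay above all others. Uqcrh differed by -0.40 for genotype on PTU (SE 0.09, adjusted p 0.0151), by 0.34 for PTU in wild type (adjusted p 0.0376) and by -0.44 in the genotype by diet term (adjusted p 0.0397), each under the fold threshold. The core subunit Uqcrc1 and cytochrome c1 (Cyc1) differed by -0.13 and -0.19 for PTU in mRID, and the small subunits Uqcr11 and Uqcr10 by -0.32 and -0.16, with adjusted p-values of 0.0745 or more. Cycs had levels of 7.67 and 7.78 in mRID PTU, 7.42 and 7.54 in WT PTU, 7.51 and 7.61 in mRID control, and 7.80 and 7.79 in WT control. Its genotype by diet term was 0.48 (adjusted p 0.0347), but its second probe gave -0.23, so the probes disagree in direction.

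In complex V, Atp5o was the 1 of 16 genes that passed in any comparison. Atp5o encodes the subunit that links the catalytic head to the stalk. Its levels were 5.06 and 5.29 in mRID PTU, 5.54 and 5.47 in WT PTU, 5.61 and 5.40 in mRID control, and 5.20 and 4.96 in WT control. WT PTU and mRID control lay above the other 2 groups. Its genotype by diet term was -0.76 (SE 0.17, adjusted p 0.0152), while PTU gave -0.33 in mRID and 0.43 in wild type (adjusted p 0.117 and 0.0508). The term no longer passed without mRID PTU array A (adjusted p 0.0577), mRID control array A (0.051) or WT control array B (0.059), and its probe was dim, with unnormalized signals of 51.9 to 66.1. It fell under the fold threshold without background correction (-0.49), with an offset of 50 (-0.41) and in the authors' processed values with and without the replicate block (-0.40), so that Atp5o passed in 9 of 16 alternatives. The catalytic subunits Atp5a1 and Atp5b differed by -0.13 to 0.14 over the 4 comparisons. The 3 genes that encode the same proton-carrying ring subunit, Atp5g1, Atp5g2 and Atp5g3, differed by -0.10 to 0.16, and the 2 arrays of a group were up to 0.41 apart for Atp5g2.

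**Figure D4:**
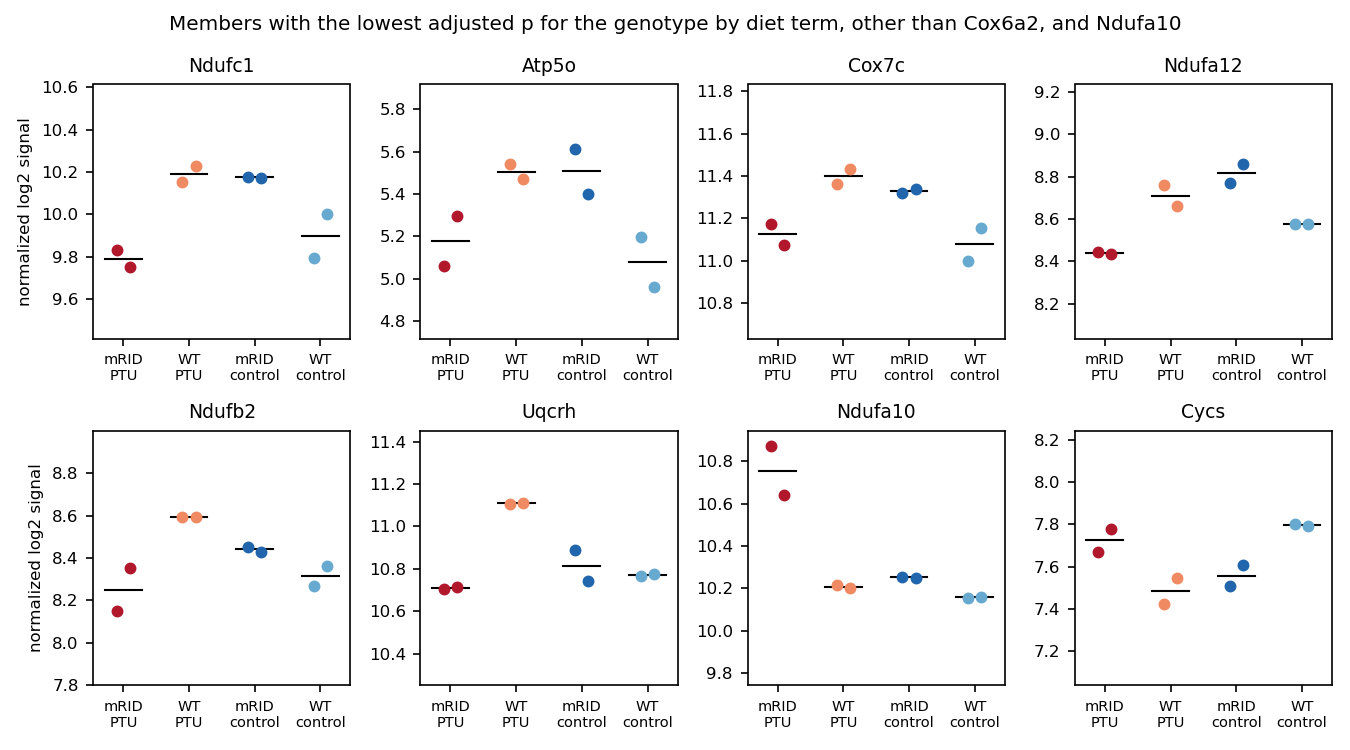
Normalized log2 signal (y axis, spanning the same log2 height in every panel) on the 2 arrays of each group for the members other than Cox6a2 with the lowest adjusted p for the genotype by diet term, and for Ndufa10. WT PTU and mRID control lie above mRID PTU and WT control for Ndufc1 and Atp5o, and Ndufa10 is highest in mRID PTU at 10.87 and 10.64.

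Many members leaned the same way by small amounts. The median difference over the 82 genes was 0.076 for genotype on control chow (62 of 82 above 0), -0.075 for genotype on PTU (21 of 82), 0.035 for PTU in wild type (55 of 82) and -0.13 for PTU in mRID (13 of 82). Over all 10298 genes these medians were 0.01, -0.038, 0.019 and -0.024, with 52.5%, 42.2%, 53.9% and 45.1% of genes above 0. For the genotype by diet term the member median was -0.15 (17 of 82 above 0) and that of all genes -0.042 (44.1% above 0). With median scaling in place of quantile normalization, the median for genotype on control chow was -0.02 (32 of 82 above 0) where all genes were at -0.074, so its sign depended on the scaling. The medians of the other 3 comparisons kept their sign, at -0.18, 0.032 and -0.14. With this scaling all genes were at -0.085, 0.00016 and -0.0066 in these, so the shift for genotype on PTU was partly shared by all genes. The 4 comparisons share arrays in pairs and are not independent of each other.

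By class, the medians for PTU in mRID were -0.11 in complex I (27 of 33 below 0), -0.22 in its assembly factors (5 of 5), -0.13 in complex III (6 of 7), -0.17 in complex IV (15 of 16) and -0.13 in complex V (13 of 16). Complex II was at -0.065 with 3 genes. These signs were the same with median scaling, at -0.098, -0.15, -0.12, -0.24 and -0.16 for the first 5, and complex I was at -0.067 without mRID control array A. For PTU in wild type the medians were 0.044 in complex I, 0.043 in assembly factors, 0.0016 in complex III, 0.04 in complex IV and 0.066 in complex V, and complex III turned to -0.017 with median scaling. Without WT PTU array B assembly factors turned to -0.0039 and complex III to -0.0032, and complex IV was at 0.0087, and without WT control array A complex III turned to -0.0102 and complex I was at 0.08. Without WT PTU array A complex III turned to -0.0054. For genotype on PTU the median of all genes was -0.038, and -0.085 with median scaling. Those of the classes were -0.068, -0.14, -0.057, -0.087 and -0.092, all below 0 under both scalings. With 1 array left out these ran from -0.106 to -0.068 in complex I, -0.245 to -0.059 in assembly factors, -0.079 to -0.021 in complex III, -0.137 to -0.053 in complex IV and -0.113 to -0.071 in complex V. Without mRID PTU array A assembly factors were at -0.059, complex III at -0.021 and complex IV at -0.137, without mRID PTU array B assembly factors were at -0.245 and complex IV at -0.053, and without WT PTU array B complex I was at -0.106. For genotype on control chow they were 0.064, 0.09, 0.082, 0.089 and 0.087, and 4 of the 5 were below 0 with median scaling, complex IV being the exception at 0.012. Without WT control array A complex III was at 0.038, and without mRID control array A complex IV was at 0.042 and complex V at 0.056. Proliferation markers (6 of 8 detected) also differed between the groups, with sums of 3025 and 2925 in mRID PTU, 3373 and 3278 in WT PTU, 3604 and 3790 in mRID control, and 2423 and 2516 in WT control, and their part in these small differences was not tested. Liver markers (4 of 5 detected) summed to 171 and 164 in mRID PTU and 76 to 109 in the other groups. Erythroid markers (7 of 9 detected) had medians of 0.24 and -0.70 for genotype on control chow and on PTU, and 0.35 and -0.48 for PTU in wild type and in mRID. For genotype on control chow and for PTU in wild type 2 of the 7 rose and 0 fell. For genotype on PTU 1 of the 7 rose and 4 fell, and for PTU in mRID 0 rose and 3 fell. Their sum, 22591 to 26006 over all arrays, was mostly that of the bright globin gene Hba-a1, and the part of liver and erythroid RNA in the members' differences was not tested.

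The group ranks, taken from the quantile-normalized values, show much of the same lean. The mRID PTU sample had the lowest mean for 48 of 82 members (58.5%, against 31.6% of all genes), and the mRID control sample had the highest for 33 (40.2%, against 22.1%). Both arrays of mRID PTU lay below both of mRID control for 48 members (58.5%) and above them for 4 (4.88%), while 30.8% and 24.2% of all genes did. In mRID PTU against WT PTU, 40 members (48.8%) were lower on both arrays and 10 (12.2%) higher, against 33.9% and 23.6% of all genes. In mRID control against WT control, 5 members (6.1%) were lower and 32 (39%) higher, against 23.8% and 26% of all genes. With median scaling 32 of 82 members were above 0 for this comparison, so its direction depended on the scaling. The ranks were not computed with that scaling. In WT PTU against WT control, 14 members (17.1%) were lower and 26 (31.7%) higher, against 25.4% and 30.5% of all genes. The share higher was thus close to that of all genes.

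**Figure D5:**
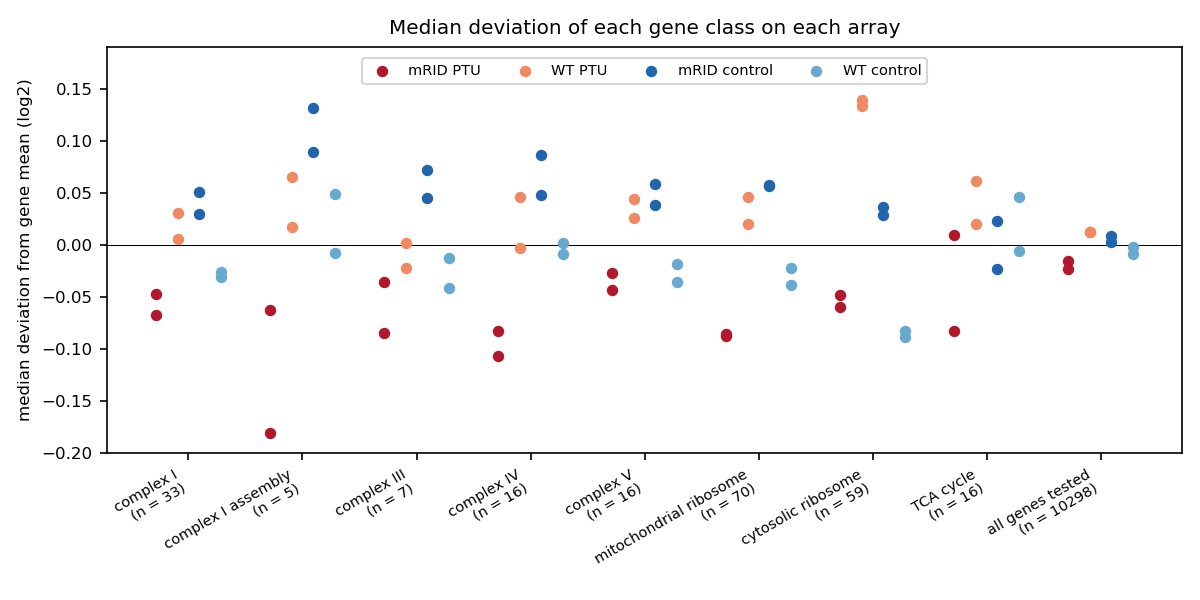
Median deviation from each gene's mean over the 8 arrays (y axis, log2) for each gene class (x axis), with 1 point per array in the colour of its group. In complexes I, III, IV and V the mRID PTU arrays lie at -0.028 to -0.11 and the mRID control arrays at 0.030 to 0.086, with some WT arrays as low or as high in complexes I, III and V.

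The adjusted p alone, with no fold threshold, gave further counts. For genotype on control chow 0 members were higher and 2 lower (1.63% and 2.38% of all genes), for genotype on PTU 1 and 3 (7.1% and 4.37%), for PTU in wild type 1 and 2 (4.46% and 5.86%) and for PTU in mRID 1 and 5 (5.54% and 4.12%). The genotype by diet term had 2 above and 6 below 0 (8.35% and 6.33%). The arrays of each RNA sample were also averaged, and genotype and diet were fitted over the 4 RNA samples in limma. In that fit 0 members and 0 genes in all passed for either. It left 1 residual degree of freedom, which is the genotype by diet term, so its error came from that term, moderated over all genes. A count of 0 from this fit cannot tell a missing effect from low precision. At an unadjusted p under 0.05 this fit had 0 members for genotype and 3 for diet, Cox6a2, Cox8b and Cox7a1, with diet differences of -1.13 (SE 0.22), -0.61 (SE 0.17) and -0.39 (SE 0.14) and 3.11% of all genes at that p. Its median diet difference over the members was -0.041, with 27 of 82 above 0.

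Gene lists next to oxidative phosphorylation were set beside the members. Mitochondrial ribosomal proteins, which make the subunits encoded in mitochondrial DNA, had medians of 0.057 and -0.11 for genotype on control chow and on PTU, and 0.05 and -0.13 for PTU in wild type and in mRID, and 0 of 70 passed. Cytosolic ribosomal proteins had 0.15 and -0.19, and 0.23 and -0.10, with 1 of 59 rising with PTU in wild type and 9 below 0 in the genotype by diet term. With median scaling the first of these medians turned to -0.036 for mitochondrial ribosomal proteins, as it did for the members, and stayed at 0.14 for cytosolic ribosomal proteins, while the others kept their signs. The 23 assembly factors whose symbols lie outside the rule had 0.08 and -0.088, and 0.084 and -0.043, and 0 passed. The 0.08 turned to -0.037 with median scaling. The tricarboxylic acid cycle enzymes had -0.06 and -0.11, and -0.011 and -0.041, and 0 of 16 passed.

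Regulators and hormone-responsive genes held larger single differences. Of 12 regulators of mitochondrial biogenesis 1 passed, Ppargc1a, a coactivator of mitochondrial genes. It was at least 2.1-fold higher in mRID PTU than in WT PTU (adjusted p 0.000123), with WT PTU not well above background, and it rose by 1.09 with PTU in mRID (adjusted p 0.00032), where 1 of 2 mRID control arrays detected it. These differences depended on the offset. With an offset of 50 the fitted Ppargc1a difference was 0.59 for genotype on PTU, against 1.17 with an offset of 16, and 0.56 for PTU in mRID, under the fold threshold, and the authors' processed values gave 0.59 and 0.56. Of 10 thyroid hormone responsive energy genes, Klf9, a transcription factor, and Gpd2, the mitochondrial glycerol phosphate dehydrogenase, rose by 0.96 and 0.89 in mRID PTU against WT PTU (adjusted p 0.000102 and 9.4e-05), while Hr, a corepressor, fell by 0.63 (adjusted p 0.0077). Without mRID PTU array A the Hr difference was -0.46 with an adjusted p of 0.0594. Klf9 also rose with PTU in mRID by 0.61, and by 0.55 and 0.52 without mRID PTU array B and mRID control array A, which is under the fold threshold. Of 18 glycolysis and hypoxia genes, 1 rose for genotype on control chow and 2 fell for genotype on PTU. With PTU in wild type 7 rose and the median of the 18 was 0.47, and 6 were below 0 in the genotype by diet term. Among them, Egln3, an oxygen-sensing hydroxylase, and the glycolytic enzyme Tpi1 differed by -0.05 and -0.08 with PTU in mRID, and rose by 1.15 and 0.81 with PTU in wild type.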

How the data were processed

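Total RNA from 4 RNA samples was measured on 8 Illumina bead arrays, 2 per sample. The deposited table holds the average bead signal per probe as an intensity on a linear scale, not normalized between arrays, with a detection p-value per probe and array, per the file headers. It was exported from GenomeStudio, version not given, per the submitters' processing notes. A second deposited table holds the authors' processed intensity values of the same arrays, with medians of 52.3 to 52.4 and a normalization not given in the sources used here.

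From the intensities, limma 3.58.1 in R 4.3.3 was used for background correction and quantile normalization (neqc, offset 16), with probes kept at a detection p under 0.05 on both arrays of a group. A model of 4 group means was fitted over all 14965 kept probes, with empirical Bayes moderation and Benjamini-Hochberg adjustment, and was tested on simulated data. A gene passed at an adjusted p under 0.05 and at least 1.5-fold. A gene with several kept probes is given by the brightest on average. Where a group was not well above background on both arrays, a fold is a lower bound against the dimmest detected signal. It makes no allowance for array error. Of 25697 probes, 23978 had 1 gene symbol in the platform annotation, 0 had several and 1719 had none, and 23962 matched RefSeq. Of 13 member genes with several kept probes, the probes differed in direction in 34 of 65 gene and comparison pairs, with 0 past the adjusted p both ways. The number of arrays limits the precision.

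Named members are those past the test, the largest difference in each class and comparison, isoform families and central subunits. Of the other lists, only some of the genes that passed are named. The members and lists were chosen with earlier results of these data known, and the promoter motifs and window after values were seen. Alternatives were median scaling, no background correction, an offset of 50, no filter, a detection p under 0.01, 1 probe per gene, the processed values as log2(value + 16), a replicate block and leaving out each array.

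The array letters could not be matched to the replicate numbers of the labels. Replicate numbers in the processed table did not pair samples, with correlations of deviations between groups of -0.0747 to 0.122.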

Additional observations from a re-analysis of the deposited data

Results flagged for a closer look

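The effect of PTU passed a test of its difference between the genotypes for 3 oxidative phosphorylation genes, by limma's genotype by diet term with Benjamini-Hochberg adjustment, which subtracts the wild-type PTU difference from that of mRID. For Cox6a2 it was 0.9638 on the log2 scale (SE 0.122, adjusted p 0.00075), with a PTU difference of -0.65 in mRID and -1.61 in wild type. For Atp5o it was -0.7558 (SE 0.17, adjusted p 0.0152), with -0.33 in mRID and 0.43 in wild type, and Atp5o passed in 9 of 16 alternatives, with values of -0.87 to -0.40. For Ndufc1 it was -0.6785 (SE 0.138, adjusted p 0.00908), with -0.38 in mRID and 0.29 in wild type. The second Ndufc1 probe gave -0.45 and did not pass (adjusted p 0.0967). Among all 10298 genes, 6.13% passed above 0 and 3.23% below 0 for this term.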

How the results depend on the processing

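Each group was 1 RNA sample, so all calls rest on array error, and the cause of each change below was not tested. Cox6a2 passed for genotype on control chow, for PTU in wild type and for the genotype by diet term in 16 of 16 alternatives. The count of members that fell for genotype on control chow was 1 without background correction, with an offset of 50, without a filter and in the processed values. All genes that fell then numbered 75, 65, 101 and 64, against 115. For PTU in wild type the member count was 1 with an offset of 50 and in the processed values, with 151 and 149 of all genes, against 252. For PTU in mRID it was 0 with median scaling, without background correction, with an offset of 50 and in the processed values. All genes that fell then numbered 67, 45, 31 and 29, against 84. For the genotype by diet term the member count below 0 was 1 without background correction, with an offset of 50 and in the processed values. All genes below 0 then numbered 209, 164 and 156, against 333. The replicate block on the processed values gave these same member counts of 1, 1, 0 and 1.

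Median scaling moved the member median to -0.0199 for genotype on control chow, where 1 of 5 classes stayed above 0, and to -0.179 for genotype on PTU. With that scaling the medians of all genes were -0.074 and -0.085. An offset of 50 gave -0.0574 for genotype on PTU and -0.125 for the genotype by diet term, and the processed values gave -0.059 and -0.136, alike with the replicate block. For all genes, median scaling turned the split for genotype on control chow to 26 higher and 170 lower, against 45 and 115.

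Leaving out 1 array at a time, members that rose numbered 0 to 1 for genotype on PTU, 0 to 1 for PTU in mRID and 1 to 2 above 0 for the genotype by diet term. Members that fell numbered 1 to 2 for genotype on control chow, 0 to 2 for PTU in mRID and 1 to 3 below 0 for the genotype by diet term. Member medians ran from 0.0639 to 0.0781 and from -0.0986 to -0.0721 for genotype on control chow and on PTU, from 0.0197 to 0.0415 and from -0.135 to -0.11 for PTU in wild type and in mRID, and from -0.18 to -0.12 for the genotype by diet term. Classes above 0 for PTU in wild type numbered 3 to 5. Among values with an adjusted p below 0.05 but under 1.5-fold, Ndufa10 kept it for genotype on PTU in 16 of 16 alternatives, Ndufc1 in 12, Uqcrh in 12 and Ndufb2 in 8, and Ndufa4 kept it for PTU in mRID in 11.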
